A study of Mus musculus with 4 samples.

Results

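Antibody binding was compared between DNA probes that carried an intact E-box and an equal number in which the same site had been changed, all of 60 bases and of the design named MITF_Ex. Members were taken by name (MITF_Ex_ebox_60 and MITF_Ex_sebox_60) and paired by the 4 varied bases that end the name (all combinations of 4 bases), which gave 512 of the 6126 probe names of the series. Every probe was printed as 10 spots. The study placed antibodies against the main UV lesions of DNA on irradiated and non-irradiated arrays of synthetic probes. There was 1 array for each of 4 groups. The anti-CPD antibody (against cyclobutane pyrimidine dimers, dilution 1 in 400) was used on a non-UV and on a UV array, and the anti-6-4PP antibody (against 6-4 photoproducts, dilution 1 in 80) likewise. The labels give Mus musculus as organism and describe both reagents as mouse antibodies. The probes are designed DNA, and no cells or tissue enter the comparison. Arrays were assigned by the labels' condition field. For the 6-4PP arrays the titles state the opposite condition. No condition has a second array, so no difference between conditions or antibodies has a replicate check.

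The E-box is the hexamer read by basic helix-loop-helix factors such as MITF, the regulator of the melanocyte lineage. UV light joins neighbouring pyrimidines (T or C) of a strand. Cyclobutane dimers are known to form most readily at TT, and 6-4 photoproducts at TC and TT. A sequence that alternates purines and pyrimidines holds no such neighbours on either strand.

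The site lay at bases 10 to 15 of the probe, counted from 1 at the 5′ end, a fixed C followed at base 16, and the varied bases lay at 17 to 20. The changed site differed from the E-box by the substitutions C10T and A11G and by nothing else. The probes below are shown because the results turn on their varied bases (CTTA, GTTC and CGCT for the site, TTTT and ACAT for the level). Capitals mark the 6 bases of the site and then the 4 varied bases.

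MITF_Ex_ebox_60_CTTA: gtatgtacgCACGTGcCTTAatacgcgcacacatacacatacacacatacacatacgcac
MITF_Ex_sebox_60_CTTA: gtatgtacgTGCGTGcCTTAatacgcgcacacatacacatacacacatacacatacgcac
MITF_Ex_ebox_60_GTTC: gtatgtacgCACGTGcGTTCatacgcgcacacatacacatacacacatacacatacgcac
MITF_Ex_sebox_60_GTTC: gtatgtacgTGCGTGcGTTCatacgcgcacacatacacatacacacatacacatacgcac
MITF_Ex_ebox_60_CGCT: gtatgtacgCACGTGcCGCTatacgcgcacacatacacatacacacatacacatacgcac
MITF_Ex_sebox_60_CGCT: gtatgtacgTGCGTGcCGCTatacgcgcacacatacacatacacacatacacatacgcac
MITF_Ex_ebox_60_TTTT: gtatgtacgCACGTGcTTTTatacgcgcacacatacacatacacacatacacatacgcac
MITF_Ex_sebox_60_TTTT: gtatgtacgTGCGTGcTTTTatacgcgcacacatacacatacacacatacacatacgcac
MITF_Ex_ebox_60_ACAT: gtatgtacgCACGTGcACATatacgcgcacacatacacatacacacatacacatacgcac
MITF_Ex_sebox_60_ACAT: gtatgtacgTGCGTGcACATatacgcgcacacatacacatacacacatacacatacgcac

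The E-box and the changed site both alternate purines and pyrimidines. Outside the 10 bases shared at the 3′ end, every dipyrimidine of a member lay within bases 16 to 21. In every pair the E-box probe and its changed partner held the same dipyrimidine steps and the same GC content. Members held 0, 2 or 4 dipyrimidine steps over both strands (16, 160 and 80 pairs). Partners thus differed in 2 bases of the site at equal dipyrimidine content.

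On the irradiated arrays the 2 libraries gave nearly the same signal, while the level varied widely with the varied bases. Intensity is fluorescence in scanner units, and a probe's value is the median of its unflagged spots. With the 6-4PP antibody, E-box probes ranged from 3533 to 65535, the scanner's ceiling, with a median of 16869, and changed probes from 4186 to 65535 with a median of 16926. With the CPD antibody the ranges were 1327.5 to 12264.5 (median 3890.25) and 1121.5 to 13327.5 (median 4207.25). On the non-UV arrays the CPD medians were 29 for both libraries, and the 6-4PP medians were 64 for the E-box and 60.5 for the changed site. Across all pairs, log2 intensities of the libraries correlated at Pearson r = 0.99 under UV and 0.65 without for the 6-4PP antibody, and at 0.85 under UV and 0.73 without for the CPD antibody. These pairs share an array and their varied bases, and the values are descriptive.

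Replicate spots showed how finely a pair could be resolved. Over the spots of an E-box probe, log2 intensity had a median SD of 0.63 under UV and 0.20 without for the CPD antibody, and 0.32 under UV and 0.15 without for the 6-4PP antibody. After the spatial adjustment deposited with the data it was 0.30 on the CPD UV array. On that array the median intensity around the spots of these 2 libraries ran from 1125 to 7874. Flags removed 53 E-box and 73 changed-site spots on the 6-4PP non-UV array and 16 and 13 on the 6-4PP UV array, and each probe kept at least 7 spots. Medians reached the ceiling for 22 probes of each library on the 6-4PP UV array. In those 22 pairs both partners did so, so their difference was not measurable.

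Levels were compared between classes of pairs that hold the same dipyrimidines. The classes pool steps of both strands, and whether the probes were double-stranded is not stated in the labels. With TT only on the strand shown, 6-4PP UV medians were 25149.2 (E-box) and 24385.2 (changed). With TT only on the opposite strand they were 16438.5 and 16328.5. On the 6-4PP UV array the 16 pairs without a dipyrimidine had medians of 4659.75 (E-box) and 4978.25 (changed). The 5 pairs with CT on both steps had 4598.5 and 6178. Those with CC on both (13 pairs) had 9336 and 9656, and those with TT on both (13 pairs) had 15346 and 14158. The 5 pairs with TC on both were highest among these classes, at 50261.5 and 45318. From CC to TT to TC the order was the same in both libraries, and the lowest place was held by CT with the E-box and by the pairs without a dipyrimidine with the changed site. On the CPD UV array the order was different: pairs without a dipyrimidine had medians of 2159.5 and 2351.5, CC on both steps 1880 and 1927.5, CT 2480.5 and 2707, TC 4266 and 4659, and TT 6444 and 6718.5. TC was thus the brightest of these classes for the 6-4PP antibody and TT for the CPD antibody, with either site.

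MITF_Ex_ebox_60_TTTT was the brightest E-box probe on the CPD UV array, at 12264.5 ± 3225 (SD, 10 spots), and its changed partner the brightest of its library, at 13327.5 ± 1761 (SD, 10 spots). Without UV the same pair had 50.5 and 46.5 with the CPD antibody. The 6-4PP antibody gave 82.5 and 62.5 without UV and 33315.5 and 30532.5 with it. AATT followed in both libraries on the CPD UV array (11244 and 10810.5), and then GATT in the E-box library (9882.5) and ATTA in the changed library (10637). The dimmest E-box probes there were GCGC (1327.5), CCAT (1396) and AGGT (1464), and the dimmest changed probes TCCC (1121.5), CCGT (1303) and CTGT (1323). Of these, GCGC has no dipyrimidine.

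With the 6-4PP antibody the brightest probes were tied at the ceiling in both libraries, with TTTG and TTTA and TTGA among them. The dimmest E-box probes were TAGC (3533), ACGT (3848) and ACAT (3851). The dimmest changed probes were GTAT (4186), ACAC (4313.5) and ACGC (4498). All of these but TAGC, which has CT on each strand, are free of dipyrimidines. With the CPD antibody the ACAT pair had 28 (E-box) and 30 (changed) without UV and 1753 and 1653.5 with it. With the 6-4PP antibody it had 70.5 and 63.5 without UV and 3851 ± 936 and 5303 ± 1028 (SD, 10 spots each) with it. Its 6-4PP UV difference, -0.46 on the log2 scale, did not pass the spot test (adjusted p = 0.106, exact permutation test).

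The next question was whether the site itself mattered at equal varied bases. For each pair and array, spots of the 2 probes were compared by a two-sided exact permutation test of mean log2 intensity, with Benjamini-Hochberg adjustment over the 2560 pairs of site and changed site in all 10 such library pairs of the series, at a threshold of 0.05. Such a test compares spots of 1 array and says nothing about repeat arrays. Differences are E-box minus changed site on the log2 scale, between the medians of the probes. SE and p-values belong to the difference in mean log2 intensity of the spots, which can differ in size from that of the medians.

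On the 6-4PP UV array the median difference was -0.0090 (quartiles -0.11 and 0.08), with 97 pairs higher, 137 lower and 22 tied at the ceiling. Without those 22 pairs it was -0.02, as it was with the adjusted intensity. The spot test called 1 pair higher and 3 lower with the E-box (1.56% of the pairs). Over all 2560 pairs 10.4% were called, 2.42% higher and 7.93% lower. Most of these calls came from the p53_60 and p53_E60 libraries (54 and 138 lower). The other MITF libraries gave few calls, as here. They were 5 higher and 1 lower for MITF_ebox_59, 5 and 2 for MITF_ebox_60, and 2 and 1 for MITF_Ex_ebox_59. GTTC was the pair called higher. Its E-box probe had 24988.5 ± 6903 (SD, 10 spots) and its changed partner 18178.5 ± 2219 (SD, 10 spots), a difference of 0.46. In mean log2 intensity the difference was 0.50 (SE 0.11, adjusted p = 0.00177, exact permutation test). On the other arrays GTTC gave 29 (E-box) against 33 (CPD non-UV), 3857.5 against 5244 (CPD UV) and 55.5 against 58 (6-4PP non-UV), each lower with the E-box and none called.

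TCGC and CGCT, and also CCAT, were called lower with the E-box on the 6-4PP UV array. CGCT had 5539.5 ± 1886 (SD, 10 spots) against 10520 ± 4009 (SD, 9 spots), a difference of -0.93. In mean log2 intensity the difference was -0.73 (SE 0.21, adjusted p = 0.0347, exact permutation test). With p-values adjusted over all 4 arrays together the calls of CGCT and CCAT on this array were lost. The CPD antibody gave 32 and 31.5 without UV and 2558.5 and 3870 with it. The 6-4PP antibody without UV gave 68 and 59, in the opposite order (difference 0.20, adjusted p = 0.00588, exact permutation test). TCGC had 23604.5 ± 5903 against 37811.5 ± 8533 (SD, 10 spots each), a difference of -0.68 (adjusted p = 0.00529, exact permutation test). CCAT had 10981.5 and 13821 and a difference of -0.33 (adjusted p = 0.0380, and 0.0538 with the adjusted intensity, where its call was lost; exact permutation test). Among the other extreme pairs, CTAC had a difference of -0.47, ACAT -0.46 and TGCT -0.46. GTGC had 0.52, CACT 0.39, GGCC 0.36 and ATTC 0.33. None of these was called. With the adjusted intensity ATTC was called higher as well (difference 0.27, adjusted p = 0.0340, exact permutation test), and 2 pairs were called higher and 5 lower in all (2.73%, against 11% over the series). The 5 lower were CGCT, TCGC and 3 more: CTGT (-0.44), CAAC (-0.41) and ACGT (-0.41).

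With the CPD antibody on irradiated DNA, the E-box probe was the dimmer partner more often than not, by a small amount. The median difference was -0.08 (quartiles -0.31 and 0.13), with 156 pairs lower and 100 higher with the E-box. With the spatially adjusted intensity it was -0.14 (quartiles -0.26 and 0.0041), with 190 lower and 66 higher, which is a ratio of 0.91 at the median. That adjustment divides by the median intensity around a spot. Around E-box spots this was higher than around their partners' spots, by a median of 0.029 on the log2 scale. Its part in the change from -0.08 to -0.14 was not tested. The median standard error of a single pair was 0.29 unadjusted and 0.14 adjusted. The spot test called 0 pairs, against 0.156% over the series. At an unadjusted p under 0.05 there were 1 higher and 12 lower, and the limma test called 0 (0.0391% over the series). With the adjusted intensity 2 pairs were called, both lower (0.78%, against 1.56% over the series). These were TACT (difference -0.46, adjusted p = 0.0277) and GGGC (difference -0.25, adjusted p = 0.0139), by the exact permutation test. TACT had the opposite sign without the adjustment, at 0.24. At an unadjusted p under 0.05 the adjusted intensity gave 42 pairs lower and 0 higher. For neither intensity was the share over the series at an unadjusted p computed, so these counts have no background beside them.

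Place on the array moved with the unadjusted CPD UV differences. Across pairs, the difference in local median between the spots of the partners correlated with the pair difference at Pearson r = 0.77, and at -0.22 after the adjustment (all pairs, which share the array, as a description). The 5 smallest unadjusted differences were those of CATC (-1.26), ACGT (-1.13), GATC (-0.92), GTCT (-0.90) and GTGG (-0.80). The 5 largest were TCCC (1.47), TCAT (1.08), AGCG (0.93), CTCG (0.92) and CACG (0.81). None was called. For TCCC the local median was 4789.5 around the E-box spots and 2039 around the changed spots, and its difference after adjustment was 0.12. For CATC the local medians were 2570.5 and 5242.5, and the adjusted difference was -0.21. ACGT, which has no dipyrimidine, kept -0.54 (adjusted p = 0.151, exact permutation test). With p-values adjusted over all 4 arrays together ACGT and TTCT were called lower on the unadjusted intensity (share over the series not computed).

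The lower CPD UV signal with the E-box was also present among pairs without a dipyrimidine. With the adjusted intensity the median difference was -0.22 in those 16 pairs (13 lower), -0.16 in the 160 pairs with 2 steps (126 lower) and -0.08 in the 80 pairs with 4 steps (51 lower). By the first varied base it was -0.15 for A, -0.12 for C, -0.16 for G and -0.10 for T. The 12 pairs with 3 T among the varied bases had 0.05, with 7 higher and 5 lower. Without the adjustment the 3 step classes had -0.05, -0.10 and -0.03, and the 12 pairs with 3 T had -0.24.

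Most calls between the sites came from the array labelled non-UV by condition, with the 6-4PP antibody. E-box probes ranged from 50 to 105.5 and changed probes from 51 to 73, and the SD of log2 intensity over the probes of a library was 0.19 and 0.09. The median difference was 0.07 (quartiles -0.02 and 0.16), with 174 pairs higher with the E-box, 70 lower and 12 equal. The spot test called 47 pairs higher (18.4%) and 2 lower (0.78%). Over all 2560 pairs 4.49% were called higher and 10.2% lower, and over the other 9 library pairs 2.95% were higher and 11.2% lower. The p53_60 and p53_E60 libraries gave 119 and 103 of those lower calls. In either direction 14.6% of the 2560 were called. The limma test called 52 higher and 3 lower, against 5.43% and 13.1% over the series. All these signals are low: the pairs without a dipyrimidine had medians of 57.25 and 56.5 on the same array.

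CTTA had the largest difference. Its E-box probe read 105.5 ± 10.8 and its changed partner 70 ± 7.32 (SD, 10 spots each) on the 6-4PP non-UV array. This is a ratio of 1.51 and a difference of 0.59. In mean log2 intensity the difference was 0.50 (SE 0.07, adjusted p = 0.00252, exact permutation test). With the CPD antibody the pair had 45.5 and 43 without UV and 8399 and 9677.5 with it, neither called. On the 6-4PP UV array both probes were at the ceiling. ATTT read 85.5 ± 7.67 (SD, 10 spots) against 57 ± 8.09 (SD, 9 spots), a difference of 0.58 (0.57 in mean log2 intensity, SE 0.08). CCTT had 105.5 ± 8.89 (SD, 10 spots) against 73 ± 4.69 (SD, 9 spots), a difference of 0.53 (0.57 in mean log2 intensity, SE 0.05). On the 6-4PP UV array ATTT had 22177.5 against 19344.5 and CCTT 27373 against 28866.5, neither called. CTTT (99.5 and 70), TCTT (91.5 and 68) and AAAT (80 and 59.5) came next on the non-UV array, all called. The 3 smallest differences were GGCA (50 and 59.5, -0.25), GGCT (55.5 and 65, -0.23) and CGGG (52.5 and 61, -0.22). GGCA and AGTC (56 and 65, -0.22) were the pairs called lower, and both calls were lost with p-values adjusted over all 4 arrays together.

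The differences on that array were then set out by the varied bases, in classes chosen after the values were seen and not tested. All 16 pairs with only A and T among the varied bases were higher with the E-box, by 0.06 to 0.58, and 11 of them were called. Their medians were 78.75 and 62.75. The median difference was 0.26 with no G or C, 0.14 with 1, 0.06 with 2, 0.02 with 3 and -0.02 with 4. By the number of T it was 0.01 with none, 0.07 with 1, 0.14 with 2 and 0.23 with 3. By the first varied base it was 0.15 for C (57 of 64 higher), 0.13 for T (55 of 64), 0.09 for A (47 of 64) and -0.04 for G (15 of 64 higher and 45 lower). In the classes by step count it was -0.00017 in the 16 pairs without a dipyrimidine, with 8 higher and 8 lower, 0.06 with 2 steps and 0.15 with 4. Of the 47 pairs called higher, 0 were among those 16, 21 had 2 steps and 26 had 4. These classes overlap, since base content and step count are tied in 4 bases, and were not separated.

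On the CPD non-UV array the libraries were close, at low signals. E-box probes had quartiles of 28 and 31.5 and changed probes 28 and 31.1. The median intensity around the spots of either library was 30. The median difference was 0 (quartiles -0.08 and 0.08), with 120 pairs higher, 116 lower and 20 equal. The spot test called 0 pairs, against 2.3% over the series. At an unadjusted p under 0.05 there were 7 higher and 14 lower (share over the series not computed), and limma called 0 (2.42% over the series). The 3 smallest differences were AGTA (27 and 38, -0.49), TCAC (27 and 33.5, -0.31) and AGTC (28 and 34, -0.28), and the largest were TTCT (38 and 31, 0.29), CATT (44.5 and 36.5, 0.29) and ATTA (42 and 35, 0.26). With the adjusted intensity 3 pairs were called, all lower (1.17%, against 4.88% over the series). The p53_60 and p53_E60 libraries gave 29 and 65 of the lower calls of the series. By the exact permutation test, AGTA had adjusted p = 0.00346, AGTC 0.00535 and GCAT 0.00937.

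The rise from the non-UV to the UV array was compared between partners, where a multiplicative factor common to an array cancels. An offset added to all spots of an array would not cancel, nor does the ceiling. E-box probes rose by a median of 7.08 and changed probes by 7.17 with the CPD antibody, and by 8.01 and 8.11 with the 6-4PP antibody, on the log2 scale. Pair by pair, the E-box rise minus the changed-site rise had a median of -0.12 for CPD (155 lower, 101 higher) and of -0.10 for 6-4PP (176 lower, 80 higher). The 6-4PP value includes the 22 pairs at the ceiling. Without them it was -0.09 (155 lower, 79 higher). By array, the median 6-4PP pair difference was 0.07 without UV and -0.0090 with it. The 6-4PP value thus came mostly from the low signals of the non-UV array. For CPD the medians were 0 without UV and -0.08 with it. If the titles of the 6-4PP arrays gave the true condition, the 6-4PP value would have the opposite sign. Over all probes of the series, the 6-4PP median was 15228 on the array that the condition field gives as UV and 56.5 on the other. The CPD medians, where title and field do not conflict, were 4193.25 and 30.

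A further set of spots measured part of the same comparison. The 64 pairs whose last varied base is C were also printed under names of the MITF_ebox_60 and MITF_sebox_60 libraries, with 10 other spots per sequence on the same arrays. For GTAC the second E-box name used was MITF_P6_N&P12_N&P18_N, which has the same sequence. Their differences under the 2 names had Pearson r = 0.53 without UV and 0.22 under UV for 6-4PP. For CPD they had 0.06 without UV and 0.02 under UV (0.25 under UV with the adjusted intensity). These are descriptions over 64 sequences. The median differences in these 64 pairs were -0.17 and -0.16 on the CPD UV array with the adjusted intensity. There 13 pairs were higher under the first names and 12 under the second, and 44 were lower under both. Since most pairs were lower under each name, this count does not show that single pairs repeated. TCGC had -0.68 and, under its second name, -0.32 on the 6-4PP UV array. GTTC had 0.46 and 0.13 there, ATTC 0.33 and 0.22, and CTAC -0.47 and -0.11. GTGC turned from 0.52 to -0.47 and GGCC from 0.36 to -0.14. On that array 31 of the 64 pairs were higher under the first names and 36 under the second, with 21 higher under both and 17 lower under both. On the 6-4PP non-UV array 34 were higher under the first names and 36 under the second, with 26 higher and 19 lower under both. The 5 pairs among the 64 that were called there kept their sign: ATTC had 0.17 and 0.13, CATC 0.27 and 0.12, CCCC 0.26 and 0.12, CTTC 0.19 and 0.37, and AGTC -0.22 and -0.09.

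The 59-base MITF_Ex libraries carry the same site and fixed C and share the arrays. Their median differences were 0.06 on the 6-4PP non-UV array, with 33 pairs called higher and 3 lower, and -0.13 on the CPD UV array with the adjusted intensity. Of the 47 pairs called higher at 60 bases and the 33 at 59 bases, 22 had the same varied bases (46.8% and 66.7% of the lists). Over all varied bases the differences at the 2 lengths had Pearson r = 0.58 on that array, a description of values from 1 array. In the MITF_ebox libraries, where a varied base follows the site directly, the median 6-4PP non-UV difference was -0.07 at 59 bases and -0.06 at 60. Split by that base in the 60-base library, it was 0.04 for C (36 of 64 higher), -0.07 for A (51 of 64 lower), -0.06 for G (45 of 64 lower) and -0.10 for T (54 of 64 lower). On the CPD UV array with the adjusted intensity it was -0.16 for C (52 of 64 lower), -0.04 for A, -0.05 for G and 0.07 for T. The C subset consists of the 64 sequences shared with MITF_Ex, and no test of the difference between libraries was made.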

How the data were processed

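Per the labels, each of the 4 samples is 1 array read in an Alexa dye channel, while UV dose and sample preparation are not stated there. The deposited files hold intensity per spot on a linear scale. Per the file headers, they give it as read, without flagged spots, as the median around a spot, and as a spatially adjusted intensity. The adjusted values equalled the unflagged intensity times an array constant over the local median at every unflagged spot. The Cy3 column was 1 throughout, so intensity was not corrected for DNA amount. Intensity without flagged spots was the main measure, as the median over spots, with the adjusted intensity beside it.

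Dipyrimidines were counted on both strands without the 10 bases shared at the 3′ end. Spots were compared with an exact permutation test (Python 3.11.15, numpy 2.4.6), tested on simulated data, and with limma 3.58.1. In the simulation the permutation test recovered 10.3% of log2 differences of 0.5 and 42.7% of those of 1 on the CPD UV array. The 0 calls there thus do not exclude such differences. On the 6-4PP UV array it recovered 66.7% and 92.4%, on the CPD non-UV array 84.0% and 100%, and on the 6-4PP non-UV array 100% of both. Named pairs were the 5 largest and 5 smallest differences per UV array among pairs below the ceiling of 65535 with at least 3 spots, the 3 largest and smallest per non-UV array, and the 3 brightest and dimmest probes per library and UV array. Other pairs named (calls under either intensity, the pairs next in order and the repeated pairs) were chosen after their values were seen. The classes by T, by G or C and by the base after the site were likewise chosen after seeing the data. The probes and comparisons were chosen with earlier results of these data known. Array number limits precision, and spot tests cover technical spread only.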

Additional observations from a re-analysis of the deposited data

Results flagged for a closer look

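The pair with CGCT was called in opposite directions on the 2 arrays of the 6-4PP antibody: the difference between E-box and changed site was 0.20 on the non-UV array and -0.93 on the UV array. The difference between these 2 effects was not tested, and each comes from 1 array. The call on the UV array was lost when p-values were adjusted over all arrays together.

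The median over all pairs also had opposite signs on the same arrays, at 0.074 without UV and -0.0090 with UV. The UV value is too near 0 to give a direction. In the 59-base MITF_Ex libraries it was 0. In the 64 repeated pairs it was -0.0011 and, under the second names, 0.013. The difference in sign was not tested either. Without the 22 pairs at the ceiling the UV median was -0.021.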

How the results depend on the processing

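The median differences kept their sign on the CPD UV array and on both 6-4PP arrays in 5 settings: spot means, adjusted intensity, all spots including flagged ones, pairs below the ceiling, and sequences printed under 1 name. They ran from -0.14 to -0.07 on the CPD UV array, from 0.073 to 0.091 on the 6-4PP non-UV array and from -0.025 to -0.0090 on the 6-4PP UV array. All settings draw on spots of the same arrays, so a kept sign is not a repeat. Without UV the CPD medians ran from -0.0043 to 0.020, on either side of 0. Counts of called pairs moved. With the adjusted intensity they were 3 instead of 0 on the CPD non-UV array, 2 instead of 0 on the CPD UV array and 7 instead of 4 on the 6-4PP UV array. With p-values adjusted over all arrays together they were 1, 2 and 2 on these arrays, and 28 instead of 49 on the 6-4PP non-UV array, all 28 higher with the E-box. The share called over the series under that adjustment was not computed, so these counts have no background beside them. Read by title, the 6-4PP rise differed by 0.10 in place of -0.10. Spot spread limits the CPD UV array most, and the ceiling hides 22 pairs on the 6-4PP UV array. No paired analysis was possible because each group has 1 array, so replicate numbers pair no arrays. Probes were paired by their varied bases throughout.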
